A study of Homo sapiens with 6 samples.

Results

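MHC class I antigen presentation was examined in SW872 cells through 9 genes of the counts table. They are the heavy chains HLA-B, HLA-C, HLA-E and HLA-F, the light chain B2M, the peptide transporter subunits TAP1 and TAP2, the loading factor TAPBP, and the transactivator NLRC5. The genes were taken by their symbols, which matched 10 of the 57773 rows. TAP2 was listed in 2 rows, and the second (ENSG00000250264, named AL669918.1 in GENCODE 29) had 0 counts in all 6 samples and was not tested. The other 9 rows passed the filter on low counts, so the account below covers each symbol by 1 row.

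SW872 is an established human liposarcoma cell line. RNA was sequenced from 3 replicates treated with 18 μM Apatinib, a small-molecule inhibitor of VEGFR-2, for 24 h, and from 3 untreated control replicates grown in the same medium (RPMI-1640 with FBS). All samples come from this 1 line, and no vehicle is named for the control. The comparison asks which genes change with the drug.

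The label was checked against marker genes. VIM, a mesenchymal intermediate filament gene, was at 980 CPM (counts scaled to library size with TMM factors) in the Apatinib group and 813 CPM in the control group, and PPARG, the main adipogenic transcription factor, at 55.2 and 51.0 CPM. Differentially expressed genes (DEGs) needed an FDR below 0.05 together with an absolute log2 fold change over 0.5. Of 9 tested genes of this mesenchymal and adipocytic list, 2 were DEGs, COL3A1 (a fibrillar collagen, log2 fold change 1.18, edgeR FDR = 0.00955) and LPL (lipoprotein lipase, 0.84, edgeR FDR = 0.0237), a share of 22.2% against 11.5% of all genes tested. Of the 6 fits that left out 1 replicate each, COL3A1 kept its call in 5 (edgeR FDR = 0.0564 without control replicate 1) and LPL in 4 (0.0831 without control replicate 2). The fat cell genes FABP4 and ADIPOQ had 0 counts in every sample. Of 10 leukocyte markers, PTPRC, MS4A1 and LYZ had 0 counts in every sample, and the summed level of all 10 was between 4.75 and 6.34 CPM under Apatinib and between 5.89 and 7.47 CPM among controls. The lowest fold change of the mesenchymal list was that of CD34 (-0.33 on the log2 scale, edgeR FDR = 0.556). Of the 3 leukocyte markers tested, none passed, and they included the monocyte gene CD14, the most abundant (-0.53, edgeR FDR = 0.156), and the NK cell gene NKG7 (0.85, edgeR FDR = 0.272). This check was made because blood cells carry much MHC class I.

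An MHC class I molecule consists of a polymorphic heavy chain, the light chain beta-2-microglobulin and a short peptide. Peptides made by the proteasome are pumped into the endoplasmic reticulum by the TAP1/TAP2 transporter, and tapasin, the product of TAPBP, bridges the transporter and the empty heavy chain until a peptide is bound. In most nucleated cells these genes have a basal level that interferon raises through factors that include IRF1 and NLRC5. The classical heavy chain promoters share an interferon response element and an upstream module with an X box, which contains a CRE-like site, and a Y box, which is an inverted CCAAT box.

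The promoters are shown because HLA-B and HLA-C varied together across the samples, as HLA-B and TAP1 also did. The sequences let the shared letters be seen beside those of B2M and TAP1. RefSeq promoter sequences (GRCh38.p14) were found for 7 of the 9 genes. The 200 bases before the gene start are given 5′ to 3′ on the strand of the gene, with motif matches on either strand in capitals. The first motif searched was AAGNGAAA, a short interferon response element. The second was a GAAA pair, GAAA repeated after a gap of any 2 bases, which can overlap it. The others were CCAAT, the core of the Y box, and the CRE-like TGACG. Among the 35116 promoter windows of this length, 5.08% held the short element, 2.40% the GAAA pair, 28.0% the Y box core and 18.4% the CRE-like motif.
HLA-B, chr6:31357180-31357379, minus strand: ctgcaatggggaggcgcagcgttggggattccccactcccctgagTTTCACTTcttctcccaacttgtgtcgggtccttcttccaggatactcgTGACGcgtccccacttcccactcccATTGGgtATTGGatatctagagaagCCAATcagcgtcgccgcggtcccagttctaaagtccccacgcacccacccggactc
HLA-C, chr6:31272093-31272292, minus strand: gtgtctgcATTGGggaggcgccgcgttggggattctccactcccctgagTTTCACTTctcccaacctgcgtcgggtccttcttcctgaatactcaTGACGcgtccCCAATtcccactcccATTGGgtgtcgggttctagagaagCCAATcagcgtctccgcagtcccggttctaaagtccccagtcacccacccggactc
HLA-F, chr6:29723234-29723433, plus strand: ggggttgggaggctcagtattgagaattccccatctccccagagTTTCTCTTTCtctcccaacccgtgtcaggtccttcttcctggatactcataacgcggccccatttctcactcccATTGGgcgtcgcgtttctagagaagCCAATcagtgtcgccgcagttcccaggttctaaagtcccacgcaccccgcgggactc
B2M, chr15:44711317-44711516, plus strand: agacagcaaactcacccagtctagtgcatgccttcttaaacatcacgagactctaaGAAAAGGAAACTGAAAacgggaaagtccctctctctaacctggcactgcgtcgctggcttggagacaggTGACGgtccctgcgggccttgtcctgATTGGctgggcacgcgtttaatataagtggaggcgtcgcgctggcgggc
TAP1, chr6:32853705-32853904, minus strand: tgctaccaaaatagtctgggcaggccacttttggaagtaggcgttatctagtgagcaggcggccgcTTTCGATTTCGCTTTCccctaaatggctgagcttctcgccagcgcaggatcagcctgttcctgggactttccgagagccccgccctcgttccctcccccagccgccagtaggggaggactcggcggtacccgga

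The HLA-B and HLA-C windows were identical at 87.7% of their aligned positions and HLA-B and HLA-F at 80.8%, whereas HLA-B and B2M were identical at 42.3%. HLA-B, HLA-C and HLA-F each held AAGNGAAA, its first base at -155, -151 and -156 from the gene start. HLA-F also held 1 GAAA pair over the same bases. B2M held 2 overlapping GAAA pairs and no AAGNGAAA. The upstream start of TAP1, which is 1 of its 2 starts in the table, held 2 GAAA pairs, 1 AAGNGAAA and no CCAAT, and the other start held 0 matches of any of the 4 motifs. TAP2 held 1 GAAA pair and TAPBP 2, the last of them ending at -5, and both genes held AAGNGAAA in 2 copies. The CRE-like TGACG was in the windows of HLA-B, HLA-C, B2M and TAP2, and HLA-F held 0 copies. HLA-E and NLRC5 had no entry. These matches are letters in a window, and binding was not measured.

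Each sample had between 17043314 and 22067558 counts. By the quasi-likelihood test of edgeR, 11.5% of all 16290 tested genes were DEGs. The share was 5.97% for higher and 5.48% for lower expression with Apatinib. The replicates were unevenly spaced in both groups. Control replicates 1 and 2 differed from each other by 2.27 in chi-square averaged over genes (sampling alone gives about 1), and from replicate 3 by 22.4 and 22.9. The Apatinib replicates differed from each other by 18.2 to 44.5 in this measure. The samples also differed with GC content. Genes of at least 60% GC deviated from their mean over the 6 samples by a median log2 CPM of 0.25, 0.05 and 0.02 in Apatinib replicates 1 to 3 and by -0.18, -0.14 and 0.04 in control replicates 1 to 3. Over all genes the median log2 fold change was -0.43 under 40% GC and 0.20 at 60% GC or more. The transcripts of the heavy chains had between 56.9% and 61.3% GC, so this difference moved with the heavy chain results below. Values from a fit with a GC offset, chosen after seeing the data, are given beside them.

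Among the 9 genes, 2 were DEGs (22.2%, against 11.5% of all genes tested), HLA-B and HLA-E, and both were higher with Apatinib (5.97% of all genes tested). Of the 9, 8 had a positive log2 fold change, with a median of 0.40 where the median of all genes tested was 0.00. In 7 of the 9, every Apatinib replicate lay above every control replicate in CPM, against 17.5% of all genes tested (33.2% without overlap in either direction). In FPKM, B2M and NLRC5 overlapped between the groups, which left 5 of the 9 without overlap. The share of all genes without overlap in FPKM was not computed, so this count cannot be set against a background. With the FDR limit alone, 3 genes passed (HLA-B, HLA-C and HLA-E), against 12.9% of all genes tested. The directions were therefore shared more widely than the calls, and both calls depended on single replicates, as given for each gene. No call of a heavy chain was left after the GC offset, because each fold change fell under the limit, while HLA-B, HLA-C and HLA-E kept an FDR under 0.05.

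**Figure D1:**
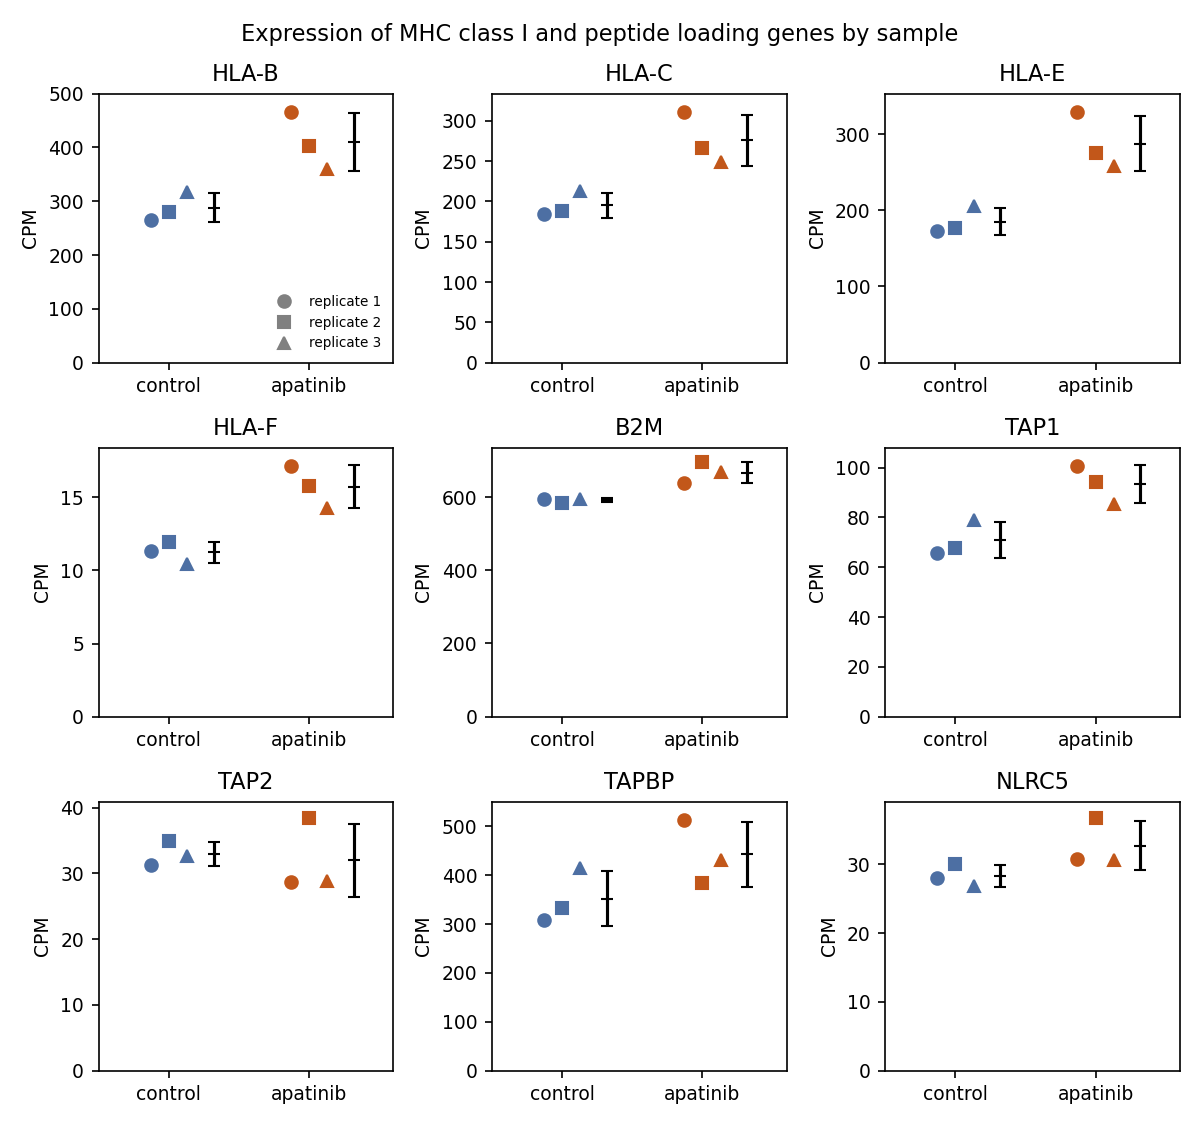
Expression (CPM, linear axis from 0) of the 9 genes in the 3 control and 3 Apatinib replicates, with marker shapes for replicate numbers and the bar beside each group for mean and SD. All Apatinib points lie above all control points for HLA-B, HLA-C, HLA-E, HLA-F, B2M, TAP1 and NLRC5, and the groups overlap for TAP2 and TAPBP.

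HLA-E (ENSG00000204592), a non-classical heavy chain that presents signal peptides to NK cell receptors, had the largest fold change of the 9 without the GC offset. Its expression was 328, 276 and 258 CPM in Apatinib replicates 1 to 3 and 173, 177 and 206 CPM in control replicates 1 to 3. The means were 287 ± 36.5 and 185 ± 18.1 CPM (SD, n = 3). The lowest Apatinib replicate was thus above the highest control replicate, which was control replicate 3. HLA-E rose by a log2 fold change of 0.63 (standard error 0.133, 95% interval 0.34 to 0.92, FDR = 0.0147 from edgeR), which is 1.55-fold. Its edgeR FDR was 0.0956 without control replicate 1, 0.0919 without control replicate 2 and 0.0904 with those replicates summed as 1 sample. With the GC offset its log2 fold change was 0.45 (edgeR FDR = 0.0123).

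HLA-B (ENSG00000234745) is a classical heavy chain that presents peptides to CD8 T cells. Its expression was 466, 403 and 361 CPM under Apatinib and 266, 280 and 318 CPM among controls. The means were 410 ± 53.1 and 288 ± 27.0 CPM (SD, n = 3). The gap between the nearest replicates, Apatinib 3 and control 3, was smaller than the range within the Apatinib group. HLA-B rose by a log2 fold change of 0.51 (standard error 0.133, 95% interval 0.22 to 0.80, edgeR FDR = 0.0318). The edgeR FDR was 0.0898 without Apatinib replicate 1, 0.166 without control replicate 1 and 0.151 without control replicate 2. With controls 1 and 2 summed it was 0.152, and with the GC offset the log2 fold change was 0.32 (edgeR FDR = 0.0464).

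HLA-C (ENSG00000204525), the other classical heavy chain examined, presents peptides and is also a ligand of inhibitory NK cell receptors. It lay just outside the criteria, with a log2 fold change of 0.499 against the limit of 0.5 (95% interval 0.22 to 0.78, edgeR FDR = 0.0297). Expression was 311, 267 and 249 CPM under Apatinib and 185, 188 and 213 CPM among controls, without overlap. DESeq2 called 3 of the 9 genes, all higher (13.8% of the genes it tested were called, 6.73% higher). HLA-C passed both criteria there (log2 fold change 0.50, DESeq2 FDR = 0.00493), so HLA-B inside the limit and HLA-C outside it cannot be read as a difference between them. The edgeR FDR of HLA-C was 0.0837 without Apatinib replicate 1, 0.155 without control replicate 1, 0.152 without control replicate 2, 0.146 with those controls summed and 0.0510 with the replicate block. HLA-C gained a call in 8 of 16 alternatives, 1 of them the FDR limit alone. It passed both criteria without Apatinib replicate 2 (0.53, edgeR FDR = 0.0323), without Apatinib replicate 3 (0.57, edgeR FDR = 0.0306) and without control replicate 3 (0.57, edgeR FDR = 0.0213). With the GC offset its log2 fold change was 0.30 (edgeR FDR = 0.0427). The ratio of HLA-B to HLA-C counts was between 1.45 and 1.51 under Apatinib and between 1.44 and 1.49 among controls.

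HLA-F (ENSG00000204642), a non-classical heavy chain with little surface expression in resting cells, had far fewer counts. The counts were 295, 280 and 249 under Apatinib and 196, 217 and 228 among controls. In CPM they were 17.2, 15.8 and 14.3 against 11.3, 11.9 and 10.4, again without overlap. The log2 fold change was 0.49 (95% interval 0.16 to 0.82, edgeR FDR = 0.0531), which missed both limits, and with the GC offset it was 0.33 (edgeR FDR = 0.114). DESeq2 gave an FDR of 0.0472 with a fold change under the limit. HLA-F was called by limma on log2(FPKM + 1) (0.504, limma FDR = 0.0470) and on log2(FPKM + 0.1) (0.538, limma FDR = 0.0476). With 1 replicate left out its edgeR FDR was between 0.0517 (without Apatinib replicate 3) and 0.187 (without control replicate 1). In GENCODE 29, 28.5% of the exon bases of HLA-F are also covered by exons of genes on the opposite strand, HLA-F-AS1 among them, and the strand setting of the counting is not given in the sources used here. For HLA-B this share was 17.8% (AL671883.2) and for TAP1 9.49% (PSMB8-AS1).

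Reads of the heavy chains can be shared between these similar genes. In the reference transcripts, 0% of the windows of 75 bases of HLA-B and of HLA-F, 1.96% of those of HLA-C and 2.02% of those of HLA-E also occur in another gene. The alleles of SW872 may differ from the reference, so that the split of reads between HLA-B and HLA-C is less certain than these shares. The treatment of reads with several matches in the counting is not given in the sources used here.

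B2M (ENSG00000166710) on chromosome 15 encodes the light chain shared by all class I molecules. Its expression was 639, 695 and 668 CPM under Apatinib and 594, 585 and 594 CPM among controls. The groups did not overlap, and the controls had an SD of 5.28 CPM. The log2 fold change was 0.17 (95% interval -0.07 to 0.42, edgeR FDR = 0.314), and the interval reaches neither limit on the fold change. B2M was the gene with the lowest GC content of the 9 (40.6%), in a range where the median of all genes was -0.18. With the GC offset its log2 fold change was 0.46 (edgeR FDR = 0.0332), so the size for B2M moved by more than 1.5 times with this setting.

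**Figure D2:**
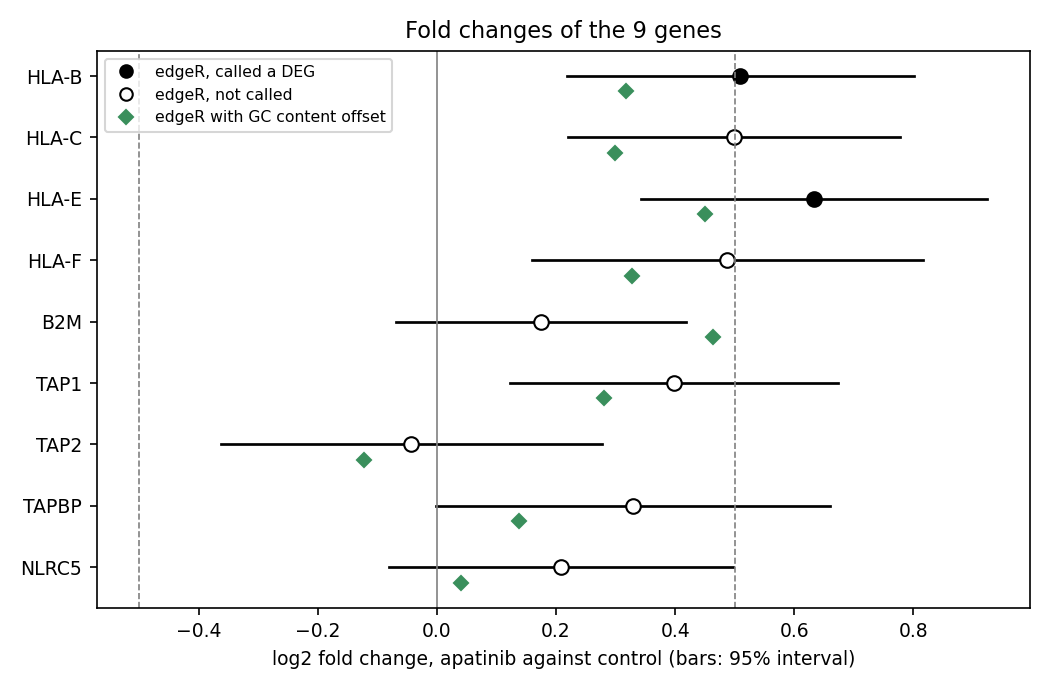
Log2 fold change of each of the 9 genes (horizontal axis, Apatinib against control) with its 95% interval from edgeR, filled where the gene was a DEG, and the value with a GC offset as a diamond. HLA-E and HLA-B lie beyond the dashed limit of 0.5, and the GC offset moves the heavy chains to between 0.30 and 0.45 and B2M to 0.46.

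TAP1 (ENSG00000168394) and TAP2 (ENSG00000204267) encode the subunits of the peptide transporter and lie near each other among the class II genes. TAP1 was at 101, 94.2 and 85.5 CPM under Apatinib and 65.8, 67.8 and 79.0 CPM among controls. These groups did not overlap, and the log2 fold change was 0.40 (95% interval 0.12 to 0.67, edgeR FDR = 0.0582), which did not pass. TAP1 had an FDR of 0.0366 with DESeq2 and 0.0347 with edgeR without control replicate 3, in each case with a fold change under the limit. Its edgeR FDR was 0.152 without Apatinib replicate 1, 0.260 without control replicate 1, 0.246 without control replicate 2 and 0.240 with those controls summed. With the GC offset the log2 fold change of TAP1 was 0.28 (edgeR FDR = 0.0593).

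TAP2 was at 28.7, 38.4 and 28.9 CPM under Apatinib and 31.2, 35.0 and 32.7 CPM among controls. Apatinib replicate 2 was the highest and Apatinib replicates 1 and 3 the lowest of the 6 samples. The log2 fold change was -0.04 (95% interval -0.36 to 0.28, edgeR FDR = 0.875), and its sign turned without Apatinib replicate 1 (0.032) and without Apatinib replicate 3 (0.029). Exons of AL669918.1 cover 32.3% of the exon bases of TAP2 on the same strand, and 35.5% of the windows of 75 bases of TAP2 also occur in another gene, so its counts are uncertain. The transporter subunits were compared within each sample, where library scaling does not enter. The ratio of TAP1 to TAP2 counts was 3.50, 2.45 and 2.96 under Apatinib and 2.11, 1.94 and 2.42 among controls, a difference in log2 ratio of 0.46. The groups did not overlap (two-sided exact permutation, p = 0.1, which is the minimum for 3 against 3 samples, 0.217 after Benjamini-Hochberg adjustment over 13 ratios). The nearest samples, Apatinib 2 and control 3, differed little, and with the GC offset the difference of the log2 fold changes was 0.40.

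TAPBP (ENSG00000231925), which encodes tapasin, was more abundant than TAP1 and TAP2. It was at 514, 384 and 430 CPM under Apatinib and 308, 333 and 415 CPM among controls. Apatinib replicate 2 was below control replicate 3, so the groups overlapped. The log2 fold change was 0.33 (95% interval -0.00 to 0.66, edgeR FDR = 0.164) and was 0.14 with the GC offset. It depended on single replicates, from 0.21 without Apatinib replicate 1 to 0.47 without control replicate 3.

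NLRC5 (ENSG00000140853) encodes the transactivator of class I genes, which acts at the X and Y box module of their promoters. Its expression was low, at 30.8, 36.7 and 30.6 CPM under Apatinib and 28.0, 30.1 and 26.9 CPM among controls. The groups lay close together, without overlap in CPM but with overlap in FPKM. The log2 fold change of NLRC5 was 0.21 (95% interval -0.08 to 0.50, edgeR FDR = 0.312) and was 0.04 with the GC offset and 0.02 with limma on log2(FPKM + 1). With 1 replicate left out it was between 0.12 (without Apatinib replicate 2) and 0.26 (without Apatinib replicate 3). Neither a change nor its absence was shown for NLRC5 with 3 replicates a group.

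Levels of the genes were ordered per length with the FPKM values of the authors. In the control group the means were 244 FPKM for B2M, 159 for HLA-B, 106 for HLA-C, 65.9 for TAPBP, 49.7 for HLA-E, 22.7 for TAP1, 14.7 for TAP2 and 4.75 for NLRC5, with SDs between 0.0248 and 13.3. HLA-F lay between TAP2 and NLRC5, at 10.7 to 11.4 FPKM. No neighbors in this order overlapped among the control replicates. The Apatinib group had the same order except that HLA-F (13.8 to 18.0 FPKM) came before TAP2 (12.3 to 16.9 FPKM), and these overlapped. TAPBP and HLA-E also overlapped with Apatinib. The FPKM values do not follow from the counts with a fixed length per gene: the length implied by counts and FPKM varied between samples by a CV of 10.8% for NLRC5, 7.38% for HLA-F and between 1.69% and 5.89% for the other genes. The order of NLRC5 and HLA-F among low genes is therefore less certain than that of the abundant genes.

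The balance of heavy and light chain RNA was read from count ratios within each sample. The ratio of HLA-E to B2M was 0.514, 0.397 and 0.387 under Apatinib and 0.291, 0.302 and 0.347 among controls. For HLA-B to B2M it was 0.729, 0.580 and 0.540 against 0.447, 0.479 and 0.535, so that Apatinib replicate 3 and control replicate 3 almost met. The difference in log2 ratio was 0.46 for HLA-E, 0.33 for HLA-B, 0.32 for HLA-C and 0.31 for HLA-F, without overlap in any of these (exact two-sided permutation test, p = 0.1 each, 0.217 after adjustment over 13 ratios). TAP1, TAPBP, TAP2 and NLRC5 overlapped between the groups in their ratio to B2M. The direction turned with the GC offset, where the log2 fold change of HLA-B minus that of B2M was -0.15 and that of HLA-E minus B2M was -0.01. No direction of the balance between heavy and light chain RNA can thus be given.

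**Figure D3:**
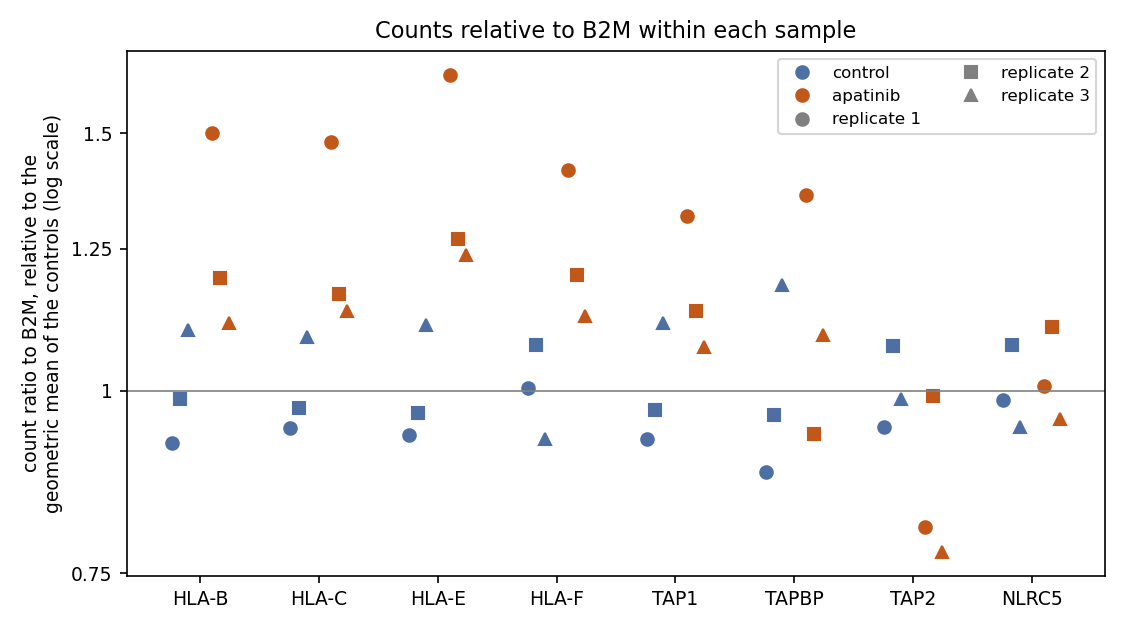
Count ratio of 8 genes to B2M in each sample, divided by the geometric mean of the controls (log axis), with colors for groups and marker shapes for replicate numbers. The heavy chains of all Apatinib replicates lie above those of all control replicates, Apatinib replicate 1 highest, and the other 4 genes overlap between the groups.

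A ratio between heavy chains of like GC content was steadier. HLA-B to HLA-E was 1.42, 1.46 and 1.40 under Apatinib and 1.53, 1.59 and 1.54 among controls. All Apatinib values were below all control values, with a difference in log2 ratio of -0.13 (exact two-sided permutation test, p = 0.1, 0.217 after adjustment over 13 ratios) and SDs of 0.0347 and 0.0269. With the GC offset the difference of the log2 fold changes was -0.13. With 3 against 3 samples this test cannot pass 0.05 whatever the values, and 6 of the 13 ratios had no overlap at the same p.

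The order of the 6 samples in CPM was the same for HLA-B, HLA-C, HLA-E and TAP1, so it was not particular to heavy chains. In HLA-F the order differed, with control replicate 3 the lowest control and not the highest. As a description over the 6 samples, which share their group difference and their GC deviation, Pearson's r of log2 CPM was 0.996 for HLA-B and HLA-C, 0.999 for HLA-C and HLA-E, and 0.993 for HLA-B and HLA-E. For HLA-F it was 0.892 with HLA-B, 0.898 with HLA-C and 0.902 with HLA-E. It was 0.745 for HLA-B and B2M and -0.179 for HLA-B and TAP2. Outside the 9 genes, the tested genes most like TAP1 were CLIP2, FASTK and SHC1 (r of 0.9995, 0.998 and 0.998), and 47 genes were above 0.99. Those most like B2M were RHBDL2, TMTC2 and ABCC3 (r of 0.9996, 0.996 and 0.992). For B2M, 4 genes were above 0.99.

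**Figure D4:**
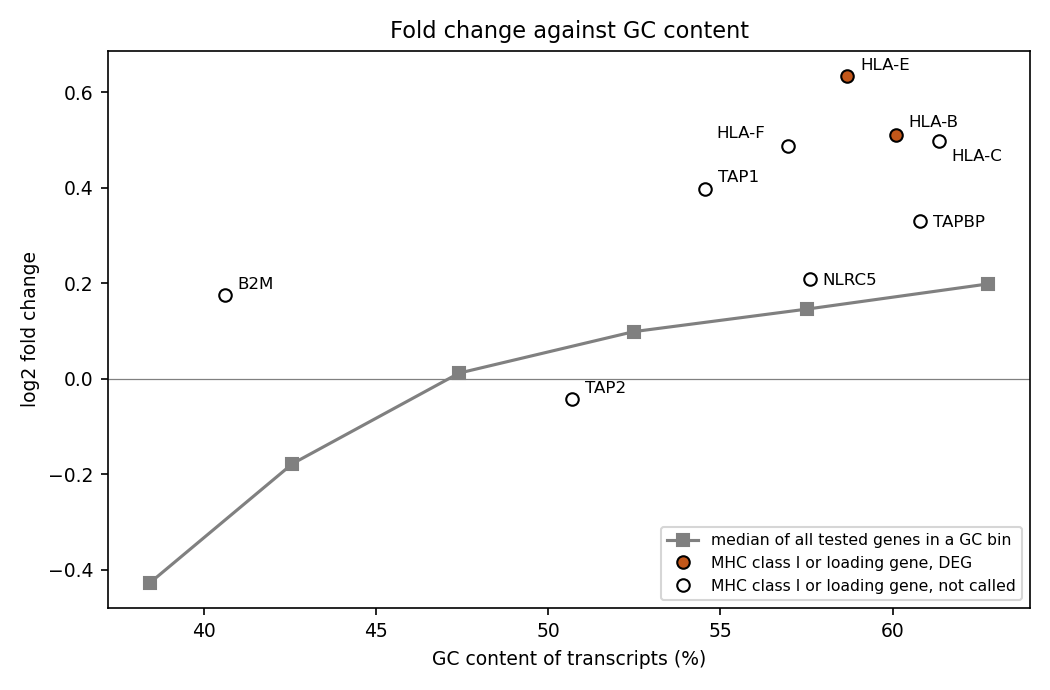
Log2 fold change (vertical axis) against the GC content of the transcripts (horizontal axis, percent) for the 9 genes, with squares for the median of all tested genes in 6 ranges of GC content. The median rises from -0.43 to 0.20 with GC content, and all of the 9 genes except TAP2 lie above it.

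Relative to all tested genes of like GC content, HLA-E was 0.49 above the median log2 fold change, B2M 0.35, HLA-F 0.34, HLA-B 0.31, HLA-C 0.30 and TAP1 0.30. TAPBP was 0.13 and NLRC5 0.06 above it, and TAP2 was -0.14 from it. On this reading B2M and the heavy chains stood at similar distances, whereas their unadjusted fold changes differed. The part of GC content in the fold changes was not tested beyond these values.

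The other genes of class I presentation were described from 4 lists of 47 genes, of which 46 were tested. On these lists 5 genes were DEGs (10.9%, against 11.5% of all genes tested), 3 of them higher and 2 lower with Apatinib, and the median log2 fold change was 0.04. Thus the share of DEGs was that of the genome at large. The lists of chaperones, proteasome subunits and regulators held 2 DEGs, both lower, and the 3 higher DEGs were class I-like molecules.

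Of 9 chaperones and trimming enzymes, 1 was a DEG and the median was 0.01. CALR, the calreticulin gene and the most abundant of them, was at 1096 CPM under Apatinib and 1086 CPM among controls (log2 fold change 0.01, edgeR FDR = 0.967). TAPBPL, a peptide editor related to tapasin, had the largest positive log2 fold change (0.37) and did not pass. LNPEP, an aminopeptidase that trims peptides in endosomes, fell by 0.56 on the log2 scale (edgeR FDR = 0.0320). LNPEP was called in 2 of the 6 fits that left out 1 replicate each, with an FDR of 0.164 without control replicate 2, and its log2 fold change was -0.25 with the GC offset. The trimming enzymes of the endoplasmic reticulum, ERAP1 and ERAP2, had log2 fold changes of 0.01 and -0.37 and did not pass.

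No immunoproteasome or activator gene was a DEG (0 of 6 with edgeR), none had an edgeR FDR under 0.05, PSMB9 alone had an unadjusted p under 0.05, DESeq2 also called 0, and the median was 0.17. PSMB9, an inducible catalytic subunit whose gene lies beside TAP1, was at 97.9, 85.7 and 80.8 CPM under Apatinib and 62.7, 67.9 and 76.1 CPM among controls, without overlap, and its log2 fold change was 0.35 (edgeR FDR = 0.0888). PSMB8, the other inducible subunit of that locus, had 0.28 (edgeR FDR = 0.192). PSME1, the most abundant in CPM averaged over both groups (PSME3 was higher among controls, at 212 against 205 CPM), had 0.13, and the activator gene PSME2 had -0.13.

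Of 22 regulators, 1 was a DEG, and the median was 0.00. NFYB, a subunit of the factor that binds the Y box, fell by 0.57 on the log2 scale (edgeR FDR = 0.0401). The edgeR FDR of NFYB was 0.174 without control replicate 1, and its log2 fold change with the GC offset was -0.29. IRF1, which binds the interferon response element, had the largest positive value (0.57, edgeR FDR = 0.196). Its counts were 1382, 2781 and 983 under Apatinib and 1183, 1133 and 1459 among controls, so 1 of the Apatinib replicates stood far above the other samples and another was the lowest. JAK1, the most abundant regulator, had -0.09 (edgeR FDR = 0.625).

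**Figure D5:**
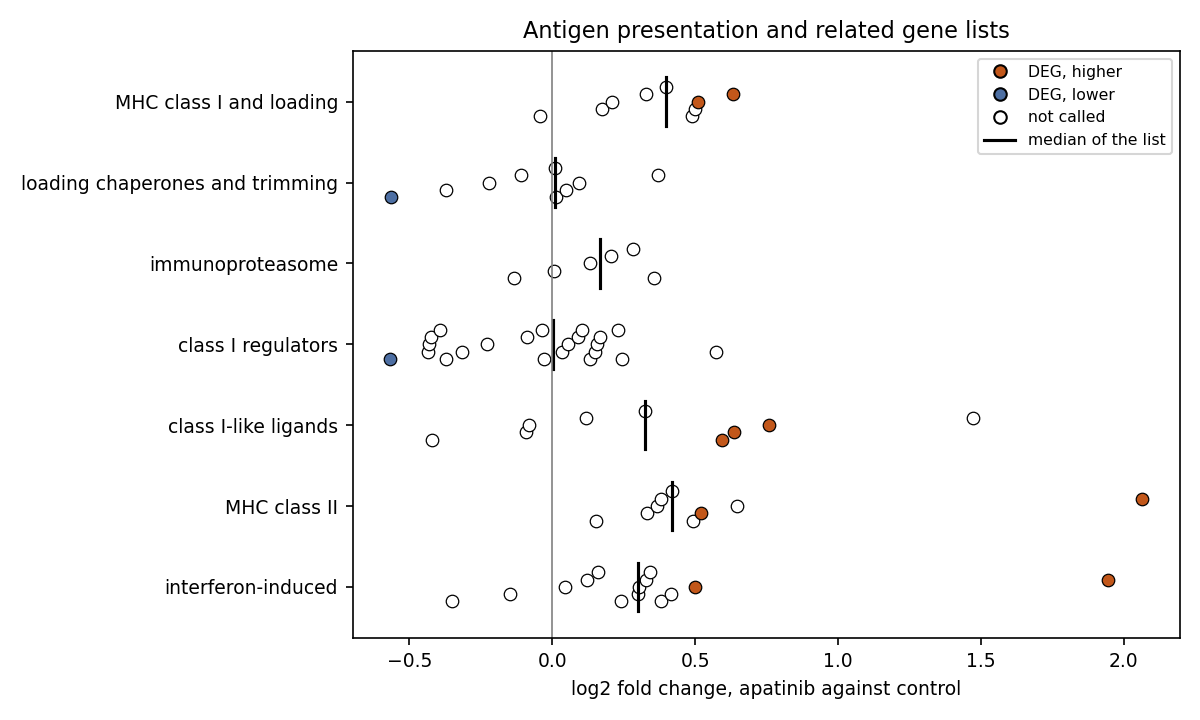
Log2 fold change (horizontal axis) of every tested gene on the list of 9 genes and on 6 related lists, colored where the gene was a DEG, with a bar at the median of each list. The chaperones and regulators are centered near 0 with 1 lower DEG each, and the class I-like and class II lists hold 3 and 2 higher DEGs. The class II DEG HLA-DQB1 passed the filter on low counts only through the Apatinib group and is no support for a change.

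Class I-like molecules held 3 DEGs among 9 tested genes (33.3%, against 11.5% of all genes tested), all higher, with a median of 0.32. CD1D, which presents lipids to NKT cells, had 552, 612 and 453 counts under Apatinib and 325, 312 and 411 among controls, and rose by a log2 fold change of 0.76 (edgeR FDR = 0.0112). MR1, which presents microbial vitamin metabolites to MAIT cells, rose by 0.59 (edgeR FDR = 0.0152). FCGRT, which encodes the neonatal Fc receptor heavy chain and was the most abundant of the list, rose by 0.64 (edgeR FDR = 0.0179). All of these molecules pair with the light chain of B2M. With the GC offset CD1D and MR1 were still called (0.66 and 0.63), and FCGRT was not (0.44, edgeR FDR = 0.0259). In the 6 fits that left out 1 replicate each, CD1D kept its call in 4 (edgeR FDR = 0.0720 without control replicate 2), MR1 in 4 (0.101 without control replicate 1) and FCGRT in 3 (0.110 without control replicate 2). ULBP1, a stress ligand of the NK cell receptor NKG2D, had the largest positive value (1.47, edgeR FDR = 0.175), from 13, 69 and 9 counts against 13, 15 and 7, and ULBP3 the lowest (-0.42, edgeR FDR = 0.598). HLA-G, with at most 8 counts in a sample, was not tested.

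SW872 cells also held RNA of MHC class II genes, which share the X and Y box module. All 9 tested genes of this list had positive log2 fold changes, with a median of 0.42, and 2 were DEGs, both higher (22.2%, against 11.5% of all genes tested). HLA-DRB1 had 459, 435 and 387 counts against 309, 283 and 387, without overlap in CPM, and rose by 0.52 (edgeR FDR = 0.0345). HLA-DRB1 kept its call in 3 of the 6 fits that left out 1 replicate each (edgeR FDR = 0.180 without control replicate 2) and lost it with the GC offset (0.40). HLA-DQB1 had 13, 20 and 17 counts against 1, 2 and 10, which gave 2.06 on the log2 scale (edgeR FDR = 0.0383), and kept its call in 1 of the 6 fits that left out 1 replicate each. HLA-DQB1 passed the filter on low counts only through the Apatinib group, where it was high. Neither its call nor its positive value is therefore support for a change of the list, and without it 1 of 8 genes was a DEG. Reads of HLA-DRB1 and HLA-DQB1 can be shared with related genes. HLA-DRA, the most abundant, had 0.15 (edgeR FDR = 0.542), and CIITA, the transactivator of class II genes and a relative of NLRC5, had 0.38 (edgeR FDR = 0.0940).

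On a list of 14 interferon-induced genes, 2 were DEGs (14.3%, against 11.5% of all genes tested), both higher, and the median was 0.30. OASL, an antiviral protein gene, had 77, 96 and 50 counts under Apatinib and 14, 16 and 34 among controls, and rose by a log2 fold change of 1.94 (edgeR FDR = 0.00748), a call kept in each of the 6 fits that left out 1 replicate and with the GC offset. IFI35 rose by 0.50 (edgeR FDR = 0.0323), but kept its call in 2 of those 6 fits (edgeR FDR = 0.166 without control replicate 1) and lost it with the GC offset (0.33). GBP2, the most abundant, had 0.24 (edgeR FDR = 0.206), and DDX58 had the lowest value (-0.35, edgeR FDR = 0.199).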

How the data were processed

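RNA sequencing of 3 Apatinib-treated and 3 untreated SW872 replicates was analysed. Groups were taken from the sample titles. The treatment label of the controls is none, although the protocol text deposited with them mentions Apatinib as it does for the treated samples. The authors deposited a table of counts per gene, whole numbers without normalization, and FPKM values per sample. The submitters' processing notes name CASAVA, STAR 2.7.1a and hg19. The counting program, its annotation and its strand setting are not given in the sources used here. One column (1) headed with a control label inside an Apatinib sample's FPKM values was not used.

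Testing used edgeR 4.0.16 under R 4.3.3 (filterByExpr, TMM, quasi-likelihood F test, Benjamini-Hochberg FDR over 16290 genes). A DEG needed an FDR below 0.05 together with an absolute log2 fold change over 0.5. CPM values use the TMM factors. Ratios were compared by exact permutation. Totals of 17043314 to 22067558 counts set the precision, and counting error is part of the model. The methods call the replicates biological but do not say whether they were separate cultures, so p values measure the spread between these samples.

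GC content, overlaps and transcript windows came from GENCODE 29 (GRCh38), used for names, gene order and sequence properties only. Of the tested genes, 97.1% had a GC content. The alternatives were RLE factors, DESeq2 1.42.0, filters on low counts (none beyond a total of 1 count, or 10 or more in each library), a replicate block, an FDR limit alone, controls 1 and 2 summed, limma 3.58.1 on log2 FPKM with a pseudocount of 1 or 0.1 (mean FPKM over 0.5), and each replicate left out. A loess GC offset (span 0.3) was added after seeing the data. In counts simulated with the library sizes of this comparison over 16067 genes, edgeR recovered 98% of changes of 1 on the log2 scale. It recovered 58% of changes of 0.7, with 4.88% false calls, and DESeq2 made 12.4% false calls over 16290 genes. The simulation gave every gene the same variation between samples and held no GC trend and no close pair of controls. Changes were placed only in genes with higher counts. The share of false calls in the real data was thus not measured.

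The members and lists were chosen with earlier results of these data known, and the motifs after the promoters were read. Genes were named by rule: the 9 members, every DEG of the other lists, the most abundant gene and the genes with the largest rise and fall of each list, and the 3 genes most like B2M and TAP1. ERAP1, ERAP2, PSMB8, CIITA, HLA-G and the marker genes were named beside them after their values were seen.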

Additional observations from a re-analysis of the deposited data

How the results depend on the processing

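The number of DEGs over all genes was 1866 and was 292 with controls 1 and 2 summed, 796 and 810 with limma on log2(FPKM + 1) and log2(FPKM + 0.1), and between 275 (without control replicate 1) and 2594 (without control replicate 3) when 1 replicate was left out. The share of higher genes among them was 52.1% and rose to 70.9%, 69.8% and 71.4% with the first 3 of these settings, and it was 48.8% with DESeq2, 47.3% with the replicate block and 42.5% without control replicate 3. Among the 9 genes, 2 DEGs became 0 with controls 1 and 2 summed, 4 with each limma fit, 0 with the GC offset, and between 0 and 3 with 1 replicate left out. On the 4 antigen presentation lists, 5 DEGs became 0 with controls 1 and 2 summed, 3 with each limma fit, 2 with the GC offset, and between 0 and 6 with 1 replicate left out. The summed and left-out fits had fewer samples, and the causes of these differences were not tested.

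Of 144 values of the 9 genes under the alternatives, 123 kept their direction and their side of the criteria, 9 lost a call and 10 gained one. TAP2 turned its sign in 2, at 0.032 without Apatinib replicate 1 and 0.029 without Apatinib replicate 3, within a range of -0.189 to 0.032 over the fits that left out 1 replicate. Replicate numbers did not pair the samples, since the deviations from the group mean of same-numbered samples correlated at -0.259, 0.0808 and -0.220. With the replicate block, 2215 genes were DEGs over all genes, 2 among the 9 genes and 5 on the 4 lists, so the block changed no count by more than 1.5 times. With 3 samples a group, unevenly spaced in both groups, log2 fold changes near 0.5 were at the limit of what could be called.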

Other observations

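The class I and loading genes other than B2M and NLRC5 lie in the major histocompatibility complex on chromosome 6. Between HLA-F and TAPBP, by gene order in GENCODE 29, 123 other genes were tested, and 5 of them (4.07%) were DEGs, all higher with Apatinib, against 5.97% higher DEGs over all genes tested. These were TNXB, VWA7, B3GALT4, HLA-DRB1 and HLA-DQB1, with log2 fold changes of 1.31, 1.24, 1.13, 0.52 and 2.06. HLA-DQB1 passed the filter on low counts only through the Apatinib group. TNXB encodes the matrix protein tenascin-X. The median log2 fold change of the 123 genes was 0.12, and 79 were positive, so the neighbors of the heavy chain genes were called no more often than genes at large. TNXB, VWA7 and B3GALT4 were named after their values were seen.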
